A study of Mus musculus with 16 samples.

Results

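RNA from mouse macrophages that had spent 180 min with apoptotic cells was compared with RNA from macrophages kept alone, across all genes. These were the 4 libraries labelled 180 min and the 4 labelled alone, 8 of the 16 libraries of the series, picked by the group named at the head of each column of the count table. The other 8 libraries, taken after 45 and 90 min with apoptotic cells, were used to estimate the spread and to date each change. The macrophages were of the Hoxb8 line, made from mouse bone marrow progenitors that the transcription factor Hoxb8 keeps dividing while it is active. The apoptotic cells were Jurkat cells, a line from a human T cell leukaemia. No genotype, dose or further agent separates the groups in the labels. Nothing in the labels ties the libraries of a group to separate cultures, so the p-values reflect differences among these samples that may be technical. When the macrophages alone were harvested is also not given, so time in culture and contact with apoptotic cells cannot be told apart.

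The uptake of dying cells by phagocytes is called efferocytosis. Receptors and bridging proteins bind phosphatidylserine on the dying cell, small GTPases drive actin around it, and the lysosome takes it apart. The phagocyte then has to handle its lipids, amino acids and nucleotides, and macrophages that do so are known for turning down inflammatory genes and secreting growth factors. Extracellular adenosine and other soluble signals from dying cells also act on the macrophage through their own receptors.

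Totals were 18681977 to 27654812 counts in macrophages alone and 10690809 to 23423640 at 180 min, so the precision is lowest for genes of low level in library 2 of 180 min, the smallest. All 20 macrophage markers were measured, and their summed level was 19771 to 20124 CPM (counts scaled to a library total of 1000000) in macrophages alone and 17928 to 20014 CPM at 180 min. Of them 4 rose (20%, against 15.1% of all genes and 16.2% of coding genes with a mean log2 CPM of 5 or more). Another 11 fell (55%, against 15.99% and 33.7%). Among those that fell were the Fc receptor gene Fcgr1, by 0.27 on the log2 scale, the lysosomal marker Cd68, by 0.26, and the transcription factor gene Maf, by 0.48. Cebpa, which encodes a myeloid lineage factor, rose by 1.03. Of 24 T cell or Jurkat markers, 4 were abundant enough to test, and 10, among them Cd3e, Cd3g, Cd2, Cd7, Trbc1 and Trbc2, had no count in any of the 8 libraries. The summed level of the 24 was 16.02 to 21.1 CPM in macrophages alone and 18.2 to 24.1 CPM at 180 min. Cd5 (0.426 CPM over macrophages alone and 1.70 CPM over 180 min) and Tal1 (4.21 and 7.24 CPM) were the markers of this list that rose. Summed levels of the other lists in macrophages alone and at 180 min were 22.5 to 26.5 and 20.02 to 25.6 CPM for neutrophil, 595 to 660 and 524 to 597 CPM for dendritic cell, 152 to 167 and 138 to 158 CPM for progenitor and 42.0 to 48.4 and 43.6 to 50.1 CPM for B cell markers. Erythroid and mast cell markers reached at most 0.554 CPM. In these 5 lists Lcn2 (-0.39), Bst2 (-0.19) and Hoxb8 fell and none rose. Lcn2 was not called with DESeq2 (-0.39), with thinned libraries (-0.19) or without library 4 of 180 min (-0.20) or library 1, 3 or 4 of macrophages alone (-0.39, -0.33 and -0.36). How reads of human RNA were handled is not given in the sources used here, and their part in the results was not tested. The bulk libraries also cannot tell fewer cells of a type from less RNA per cell. Hoxb8 itself was at 32.2, 26.6, 27.8 and 24.5 CPM in the libraries of macrophages alone and 18.7, 24.7, 21.9 and 21.3 CPM at 180 min, groups that overlapped, and fell by 0.37 (adjusted p = 0.0025).

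Of 14168 genes tested with edgeR's quasi-likelihood test and Benjamini-Hochberg adjustment, 2139 (15.1%) were higher and 2265 (15.99%) were lower at 180 min, at an adjusted p under 0.05. Fold changes are on the log2 scale, with 1 meaning a doubling, and standard errors (SE) are from the same fit. At least 2-fold, 396 genes (2.80%) rose and 104 (0.734%) fell, and 175 of these 396 and 43 of these 104 were noncoding. Among 5177 abundant coding genes, those whose mean log2 CPM was 5 or more, 839 (16.2%) were higher and 1744 (33.7%) lower, and 25 rose and 19 fell at least 2-fold. The libraries of the 2 groups did not overlap in 4050 genes (28.6%). Percentages given for lists below are to be read beside 15.1% higher and 15.99% lower of all genes. The same shares of abundant coding genes were 16.2% and 33.7%. Among 11436 protein-coding genes 1794 rose and 2165 fell, with a median change of -0.01, whereas 333 of 2648 noncoding genes rose and 97 fell, with a median of 0.24. After correction for a trend with gene length and GC content, 1792 genes were higher and 3037 lower, so the share of calls that were higher went from 48.6% to 37.1%, and the median of all genes from 0.01 to -0.04. With protein-coding genes scaled and tested by themselves, 250 genes rose and 56 fell at least 2-fold. Set directly against the libraries of 90 min, 631 genes (4.45%) were higher and 987 (6.97%) lower at 180 min, and against those of 45 min 2596 (18.3%) and 2556 (18.04%).

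**Figure D1:**
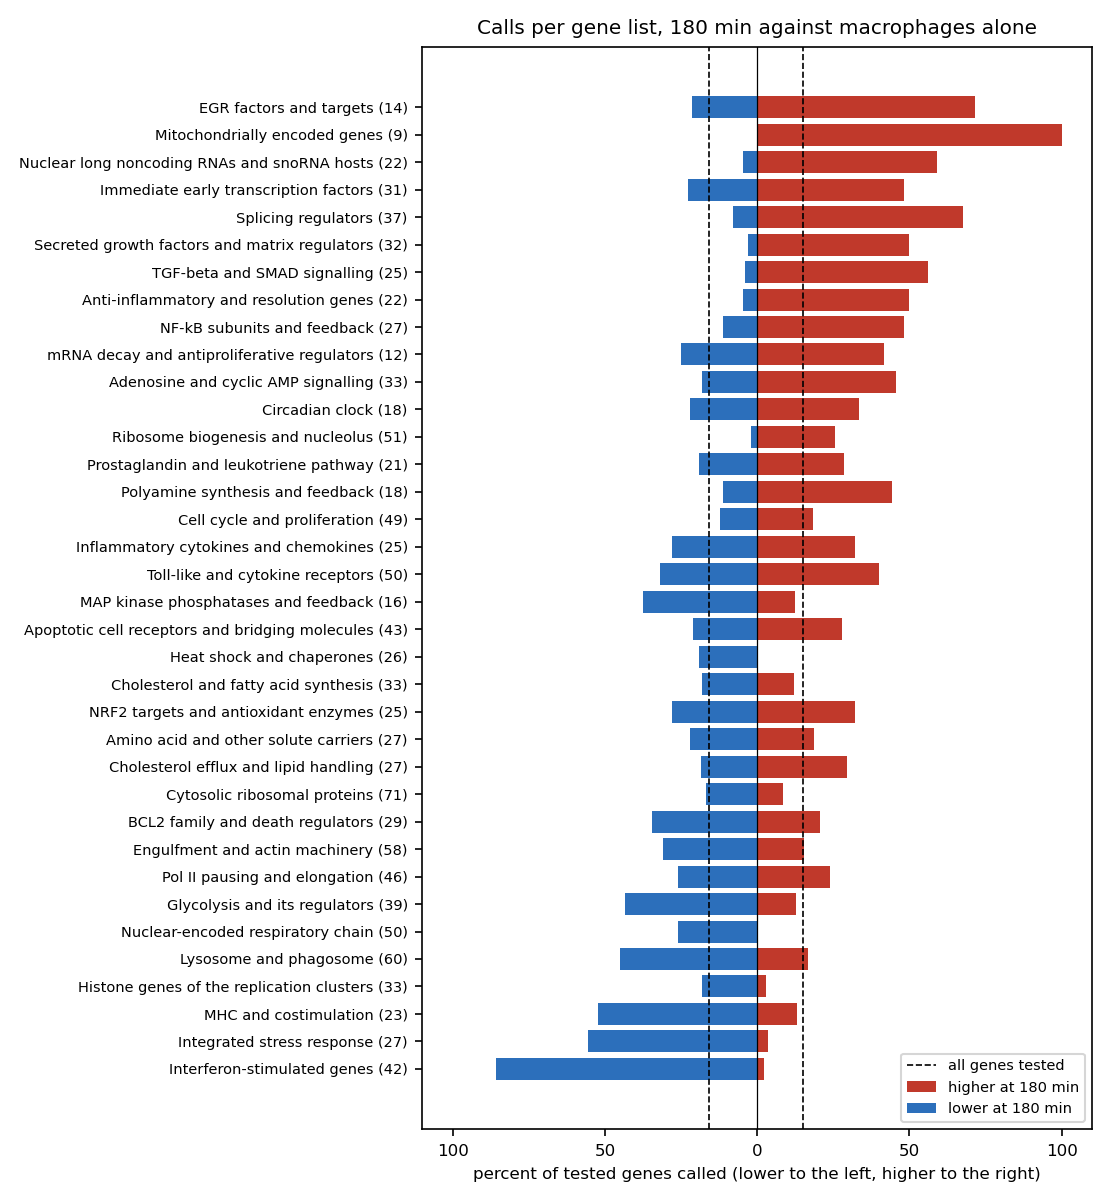
Percent of the tested genes of each list that were called higher (right, red) or lower (left, blue) at 180 min against macrophages alone, with the number tested in brackets and lists ordered by median log2 fold change. Dashed lines mark all genes tested, 15.1% higher and 15.99% lower. Interferon-stimulated genes at the bottom reach furthest to the left, with 36 of 42 lower.

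Interferon-stimulated genes formed the list with the most falls: 36 of 42 tested genes were lower at 180 min, 1 was higher and the median change was -0.47, against 15.99% lower and a median of 0.01 over all genes. These genes encode antiviral and antigen-processing proteins and are switched on by type I and type II interferon through STAT and IRF factors. The number that fell was 36 under each alternative that covered the whole list, which the restriction to protein-coding genes did not. Cxcl10, a chemokine that draws activated T cells, was at 57.96, 60.1, 65.8 and 63.2 CPM in the libraries of macrophages alone and at 23.9, 20.2, 18.4 and 23.2 CPM at 180 min. Every library of 180 min lay far below every library of macrophages alone, and Cxcl10 fell by 1.53 (SE 0.076, adjusted p = 4.83e-25). Iigp1, an immunity-related GTPase that attacks vacuoles of intracellular parasites, was at 249.6, 270.5, 258 and 272 CPM and then at 97.6, 106, 99.8 and 108 CPM. It fell by 1.35 (SE 0.048, adjusted p = 2.02e-31), again with no overlap. Mx2, an antiviral GTPase, fell by 1.19 (SE 0.061), Cmpk2, a mitochondrial nucleotide kinase, fell by 1.004 (SE 0.038), Ifit3b by 0.99 (SE 0.041) and Ifit1, which binds foreign RNA 5' ends, by 0.89 (SE 0.037). Ifit1 was at 1056, 1080.4, 1060.4 and 1062 CPM in macrophages alone and 587, 559, 569 and 585 CPM at 180 min, so the libraries of a group lay close together and the groups far apart. Ifit3b, Mx2 and Iigp1 have near-identical relatives, and reads may have been split between them.

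Irf1, Stat2 and Irf7, which regulate this program, were among the genes that fell. They and the other genes of this paragraph without a place in the naming rule were named after their values were seen. Irf1, a transcription factor induced by interferon, was at 124, 127, 125 and 124 CPM in macrophages alone and 78.1, 74.1, 70.2 and 69.4 CPM at 180 min and fell by 0.78 (adjusted p = 3.55e-19). Stat2 fell by 0.62 (SE 0.038), from 881, 856, 871 and 857 CPM to 562, 550.3, 554 and 579 CPM. Irf7 fell by 0.32, and its groups did not overlap. Isg15, a ubiquitin-like modifier, fell by 0.56 (SE 0.046), and Irgm2, a regulator of the immunity-related GTPases that is not on the list, by 1.10 (SE 0.045). Irf8, a lineage factor of myeloid cells, was the member that rose (0.26). The falls came late. Directly against 90 min, 37 of the 42 were lower at 180 min (6.97% of all genes), with a median of -0.44. Cxcl10 had stood at -0.01 and -0.13 from macrophages alone at 45 and 90 min, neither of which was called, and fell by 1.40 (SE 0.077) between 90 and 180 min. Mx2 had been 0.19 higher at 45 min and Isg15 0.19 higher, both called.

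**Figure D2:**
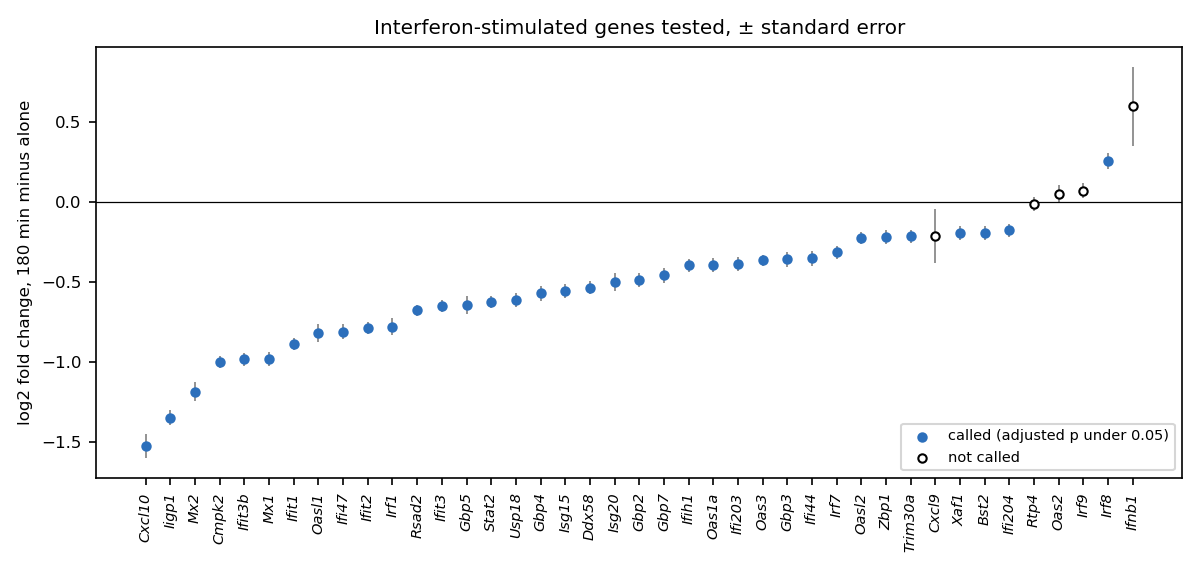
Log2 fold change at 180 min against macrophages alone of the tested interferon-stimulated genes plotted here, which need not be all of the list. Bars are the standard error of the fit, and genes are ordered by size. Filled points passed an adjusted p of 0.05 and open ones did not. All filled points but that of Irf8 lie below the line at 0.

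Because these genes fell together, their promoters were searched for the interferon-stimulated response element, to which IRF and STAT complexes bind. The letters searched were GAAA, any 2 bases and again GAAA, on both strands, in 300 bases from 250 before to 50 after each start, as given by RefSeq for the build GRCm38.p6. This motif was chosen after the fall had been seen. It was present in 4.11% of the promoters of the 9650 tested genes that had one, in 7.84% of those of genes that fell, in 3.72% of those of genes that rose and in 17.4% of those of genes that fell at least 1.5-fold. Of 28 interferon-stimulated genes that fell and had a promoter sequence, 18 (64.3%) held it. Of all 32 tested genes of the list with a promoter sequence, 18 (56.25%) did. The list was chosen as interferon-stimulated genes, so this share cannot tell whether the element goes with the fall. These 4 are shown because their genes fell and hold the element, with the matches in capitals, 5' to 3' on the strand of the gene:
Cxcl10 (chr5:92348840-92349139, minus strand): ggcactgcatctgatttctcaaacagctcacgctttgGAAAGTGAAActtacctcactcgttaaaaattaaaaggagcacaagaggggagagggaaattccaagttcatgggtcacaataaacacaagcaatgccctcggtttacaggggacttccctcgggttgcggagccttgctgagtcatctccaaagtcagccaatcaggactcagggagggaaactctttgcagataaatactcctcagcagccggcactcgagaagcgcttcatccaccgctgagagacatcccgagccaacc
Isg15 (chr4:156200769-156201068, minus strand): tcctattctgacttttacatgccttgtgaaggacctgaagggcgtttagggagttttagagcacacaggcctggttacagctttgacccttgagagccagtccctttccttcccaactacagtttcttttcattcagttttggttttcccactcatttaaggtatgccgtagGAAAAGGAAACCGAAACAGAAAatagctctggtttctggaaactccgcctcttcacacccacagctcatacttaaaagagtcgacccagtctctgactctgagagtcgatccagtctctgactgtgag
Ifit1 (chr19:34640639-34640938, plus strand): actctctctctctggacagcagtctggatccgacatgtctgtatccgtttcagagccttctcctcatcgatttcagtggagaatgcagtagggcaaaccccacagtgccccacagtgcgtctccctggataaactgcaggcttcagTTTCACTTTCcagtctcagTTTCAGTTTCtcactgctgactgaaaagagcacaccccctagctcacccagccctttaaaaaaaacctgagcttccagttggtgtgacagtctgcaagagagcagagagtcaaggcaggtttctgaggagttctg
Irgm2 (chr11:58214727-58215026, plus strand): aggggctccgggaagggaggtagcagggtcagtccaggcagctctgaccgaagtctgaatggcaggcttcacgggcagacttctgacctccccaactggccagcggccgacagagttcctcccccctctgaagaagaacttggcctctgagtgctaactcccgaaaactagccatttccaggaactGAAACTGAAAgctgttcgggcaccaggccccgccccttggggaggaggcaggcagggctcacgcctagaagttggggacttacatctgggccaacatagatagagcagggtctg
Isg15 holds 3 overlapping matches, Ifit1 holds 2, and Cxcl10 and Irgm2 hold 1 each, that of Cxcl10 near the upstream edge of the window. A match of letters is a description and does not show that a factor was bound.

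Genes that load peptides onto MHC class I fell with them. Of 23 MHC and costimulatory genes 12 were lower and 3 higher, with a median of -0.22. Tap2, 1 chain of the pump that carries peptides into the endoplasmic reticulum, was at 243, 244, 266 and 237 CPM in macrophages alone and 174, 155, 174 and 177 CPM at 180 min. It fell by 0.54 (SE 0.047, adjusted p = 1.03e-14), and its groups did not overlap. The other chain, Tap1, fell by 0.35, the peptide-loading chaperone Tapbp by 0.33 and the immunoproteasome subunit Psmb8 by 0.40. The MHC class II loading factor H2-DMa (0.74), the maturation marker Cd83 (1.02) and the inhibitory receptor Cd200r1 (0.29) were the members that rose. Psme2b, a near-identical copy of the proteasome activator subunit Psme2, was at 27.1, 25.7, 27.7 and 24.6 CPM and then at 9.20, 10.2, 8.92 and 11.7 CPM and fell by 1.39 (SE 0.11). Psme2 itself fell by 0.42 (SE 0.046), and reads of this pair may have been exchanged.

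Genes of adenosine and cyclic AMP signalling rose more often than they fell. Cyclic AMP is made when adenosine or prostaglandin E2 binds a Gs-coupled receptor, and it acts through protein kinase A and the exchange factor Epac. Of 33 genes tested 15 rose (45.5%) and 6 fell (18.2%), beside 15.1% and 15.99% of all genes, and 12 were not called. The median was 0.18, with a range of -1.21 to 3.28 (3 fell without library 3 of macrophages alone). The genes named here are ones that rose. Adora2b, the low-affinity adenosine receptor coupled to Gs, was at 1.84, 1.49, 1.32 and 2.04 CPM in macrophages alone and at 13.6, 17.9, 17.5 and 15.5 CPM at 180 min. All 4 libraries of 180 min were far above all 4 of macrophages alone, and the rise was 3.28 (SE 0.17, adjusted p = 1.11e-23). It had already risen by 2.60 at 90 min and rose by a further 0.68 (SE 0.15) from 90 to 180 min. Rapgef3, which encodes Epac1, the exchange factor that cyclic AMP opens, was at 3.25, 2.62, 2.83 and 2.63 CPM and then at 13.6, 14.98, 16.3 and 16.5 CPM. It rose by 2.43 (SE 0.17, adjusted p = 1.42e-18), also without overlap. Ptger4, a prostaglandin E2 receptor coupled to Gs, rose by 1.26 (SE 0.066), from 31.3, 32.98, 30.3 and 33.5 CPM to 71.5, 76.1, 82.9 and 75.4 CPM. Prkar2b, a regulatory subunit of protein kinase A, rose by 0.88 (SE 0.099). Pde4d, which breaks cyclic AMP down and was named after its value was seen, rose by 1.36 (SE 0.16).

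Inhibitors of SMAD signalling were among the largest rises. TGF-beta and bone morphogenetic proteins act through receptor-activated SMADs, and Smad6, Smad7 and Pmepa1 are induced by the pathway and block it. Of 25 genes of the pathway 14 rose (56%) and 1, the receptor gene Bmpr2 (-0.44), fell (4%). The median was 0.25 (3 fell after the length and GC correction, and 2 with libraries thinned to 1 depth). Smad6 was at 1.51, 1.57, 2.79 and 1.66 CPM in macrophages alone, where library 3 lay above the other three, and at 7.97, 10.7, 8.16 and 10.5 CPM at 180 min. It rose by 2.29 (SE 0.22, adjusted p = 5.93e-13), without overlap. Smad7 went from 8.91, 8.15, 9.21 and 9.07 CPM to 32.1, 27.01, 32.5 and 31.3 CPM, a rise of 1.80 (SE 0.10, adjusted p = 4.17e-22). Pmepa1 rose by 1.62 (SE 0.12) and the signal-carrying Smad3 by 0.94 (SE 0.061), from 47.7, 44.7, 50.7 and 44.95 CPM to 90.3, 91.05, 89.5 and 89.2 CPM. The secreted matrix protein gene Tgfbi rose by 0.56. Against 90 min, 9 of the 25 genes were higher at 180 min (36%, against 4.45% of all genes) and 1 was lower (4%, against 6.97%). Smad6 and Pmepa1 were 1.11 and 1.04 higher.

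Secreted growth factors and matrix regulators rose in 16 of 32 cases (50%) and fell in 1 (3.1%), the metalloproteinase gene Mmp19 (-0.22). The median was 0.29 (the number that fell was 0 to 2 when single libraries were left out, and 2 after the length and GC correction). Mmp19 was not called without library 3 or 4 of 180 min (-0.21 each) or of macrophages alone (-0.17 and -0.19). Pdgfa, a chain of platelet-derived growth factor that stimulates fibroblasts, was at 0.505, 1.14, 1.06 and 1.88 CPM and then at 5.66, 5.24, 3.70 and 3.58 CPM. It rose by 2.003 (SE 0.33, adjusted p = 1.17e-06), and the highest library of macrophages alone, library 4, was still below the lowest of 180 min. Its partner chain Pdgfb rose by 1.55 (SE 0.13), from 5.91, 4.39, 6.46 and 6.87 CPM to 18.1, 15.5, 18.7 and 16.3 CPM. Plau, the urokinase-type plasminogen activator, rose by 1.02. Bmp10, a ligand of the bone morphogenetic protein family, is on neither this list nor that of SMAD signalling. It fell by 1.23 (SE 0.34, adjusted p = 0.00293) from a low level, 2.67, 2.23, 2.83 and 1.88 CPM in macrophages alone and 0.954, 0.827, 0.637 and 1.601 CPM at 180 min.

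Several genes that act on cytokine receptor signalling were among those that rose, named singly and not as a list. Cish, a SOCS-box protein that is induced by STAT5 and blocks it, was at 7.36, 9.36, 8.19 and 8.74 CPM in macrophages alone and at 32.6, 30.6, 38.1 and 29.4 CPM at 180 min, a rise of 1.96 (SE 0.10, adjusted p = 1.16e-23) without overlap. Most of this rise was present at 90 min (1.63). Socs2, of the same family and named after its value was seen, was at 0.289, 0.157, 0.189 and 0.268 CPM and then at 1.98, 1.38, 2.68 and 2.61 CPM, a rise of 3.25 (SE 0.58, adjusted p = 6.71e-06) at levels that few reads support. Il4ra, a receptor chain for interleukin-4, rose by 0.76 (SE 0.044), from 234, 232, 235 and 221 CPM to 396, 394, 392.3 and 379 CPM. Spsb1, a SOCS-box adaptor of a ubiquitin ligase, rose by 2.59 (SE 0.15), from 3.07, 3.995, 3.96 and 3.11 CPM to 25.4, 19.8, 21.7 and 18.6 CPM. Of 22 genes listed for anti-inflammatory and resolving roles, which include Cish and Socs2, 11 rose (50%) and 1 fell (4.55%). The 1 that fell was the formyl peptide receptor gene Fpr2 (-0.31), and 2 fell without library 2 of 180 min or after the length and GC correction. The median was 0.23. Il10, an anti-inflammatory cytokine of this list, was at 1.37, 1.72, 1.66 and 1.66 CPM in macrophages alone and 0.818, 2.48, 0.680 and 0.843 CPM at 180 min, with library 2 above the other three. It was not called (-0.52, adjusted p = 0.288), and without library 2 of 180 min it was called lower (-1.04, adjusted p = 0.0241, with a range of 0.0241 to 0.613 over all alternatives).

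**Figure D3:**
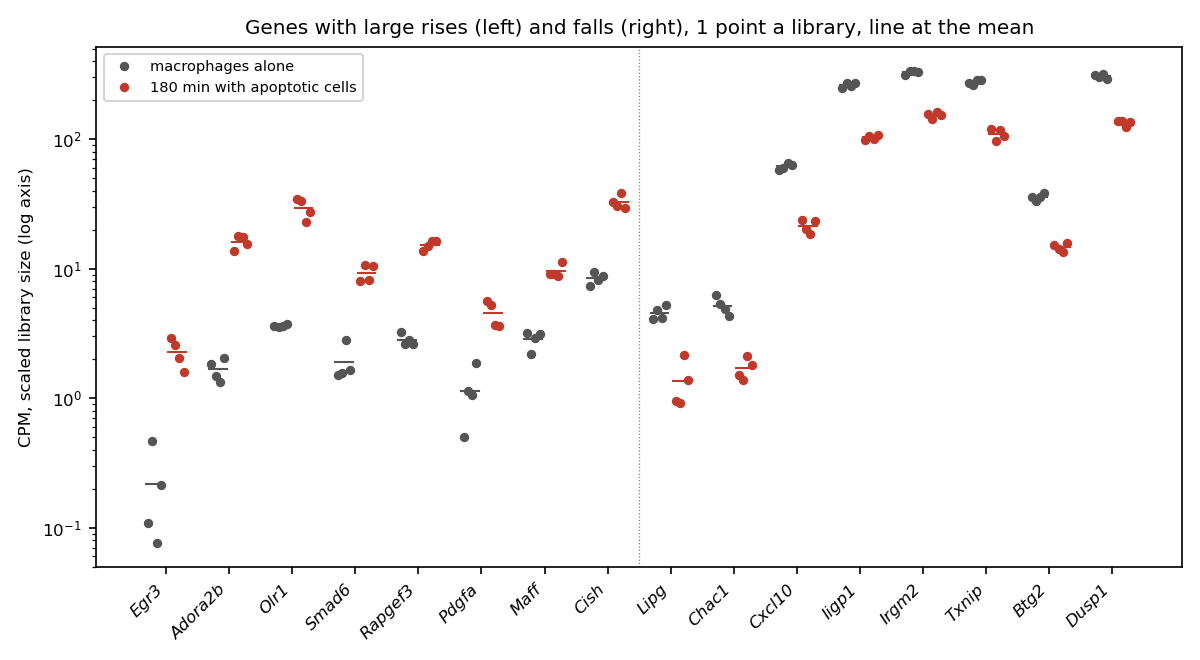
Level in CPM, on a log axis, of 16 genes in the 4 libraries of macrophages alone (grey) and the 4 of 180 min (red), with a line at each mean. The 8 genes left of the dotted line rose and the 8 right of it fell, and the libraries of the groups did not overlap in any of these genes.

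The early growth response (EGR) factors, zinc-finger proteins made within minutes of many stimuli, had parted by 180 min. Egr3 was at 0.108, 0.470, 0.0755 and 0.215 CPM in macrophages alone and at 2.93, 2.57, 2.04 and 1.601 CPM at 180 min, the largest rise of the genes taken by the naming rule (3.35, SE 0.39, adjusted p = 1.46e-10). It had been higher earlier, and fell by 1.14 from 90 to 180 min. Egr2 was at 1.01, 1.80, 1.51 and 1.72 CPM and then at 6.34, 2.48, 6.88 and 5.98 CPM, with library 2 of 180 min well under the other three yet above every library of macrophages alone, and rose by 1.90 (SE 0.22). Egr1 was at 15.9, 12.7, 12.6 and 16.2 CPM in macrophages alone and 10.9, 9.004, 10.3 and 12.8 CPM at 180 min. Its groups overlapped, and it fell by 0.39 (SE 0.11, adjusted p = 0.00419) after having been 2.27 higher at 45 min and 0.87 higher at 90 min. Of 14 EGR factors and targets 10 rose (71.4%) and 3 fell (21.4%), with a median of 1.08. Nab2, which represses EGR factors and is induced by them, rose by 1.54 (SE 0.11), and Id2, an inhibitor of helix-loop-helix factors, by 1.14 (SE 0.045), from 148, 149.8, 156 and 148 CPM to 350.1, 329.8, 313 and 334 CPM. Besides Egr1, the costimulatory ligand gene Tnfsf9 (-1.07) and the G protein regulator gene Rgs1 (-0.16) were the members that fell.

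Of 31 immediate early transcription factor genes 15 rose (48.4%) and 7 fell (22.6%), with a median of 0.34. Maff, a small MAF protein that pairs with NRF2 and other factors, was at 3.17, 2.19, 2.91 and 3.11 CPM and then at 9.13, 9.10, 8.71 and 11.3 CPM, with library 4 the highest. It rose by 1.75 (SE 0.17, adjusted p = 6.66e-13). Fos, a subunit of AP-1, fell by 0.44 (SE 0.051), from 178, 167, 158 and 165 CPM to 128, 120.5, 124 and 120.1 CPM, having been 0.68 higher at 45 min. Its partner Jun was 0.13 higher (adjusted p = 0.0327), and this call ended after the length and GC correction (0.03), without library 1 of 180 min (0.10) or without library 2 or 4 of macrophages alone (0.13 each). Over all alternatives its adjusted p ran from 0.00739 to 0.709. The nuclear receptor gene Nr4a1 rose by 0.99 and Myc by 0.85, and Nr4a3, named after its value was seen, by 1.95 (SE 0.40). Between 90 and 180 min Myc fell by 0.43.

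Phosphatase and feedback genes of MAP kinases were called about as often as abundant coding genes (33.7% lower and 16.2% higher). Of 16 such genes 6 fell (37.5%) and 2, Dusp4 (0.49) and Dusp7 (0.25), rose (12.5%), with a median of 0.00. Dusp7 was no longer called after the length and GC correction (0.13). Dusp1, a phosphatase that switches off JNK and p38, was at 311, 304, 317 and 294 CPM in macrophages alone and at 137, 138, 124 and 135 CPM at 180 min. It fell by 1.20 (SE 0.046, adjusted p = 4.75e-30), without overlap, after having been 0.68 higher at 45 min. Dusp6, which acts on ERK, fell by 1.03 (SE 0.06), from 113, 110.2, 122 and 115 CPM to 63.2, 50.6, 51.7 and 59.9 CPM, and Spry2, a feedback inhibitor of receptor tyrosine kinases, by 0.79 (SE 0.066). Directly against 90 min, 7 of the 16 were lower (43.8%, against 6.97% of all genes) and none was higher. Among 12 regulators of mRNA decay and proliferation 5 rose (41.7%) and 3 fell (25%). Zc3h12a, a ribonuclease that degrades cytokine mRNAs, was at 100.6, 87.5, 86.9 and 91.1 CPM and then at 279.6, 274, 268 and 261 CPM and rose by 1.56 (SE 0.051). Tob2, Btg1, Zfp36l1 and Zfp36l2 rose by 0.64, 0.33, 0.27 and 0.23. Btg2, an antiproliferative partner of the deadenylase, fell by 1.28 (SE 0.089), from 35.6, 33.02, 35.5 and 38.5 CPM to 15.1, 14.1, 13.5 and 15.8 CPM, and Rc3h1 (-0.30) and Pan3 (-0.17) fell as well.

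**Figure D4:**
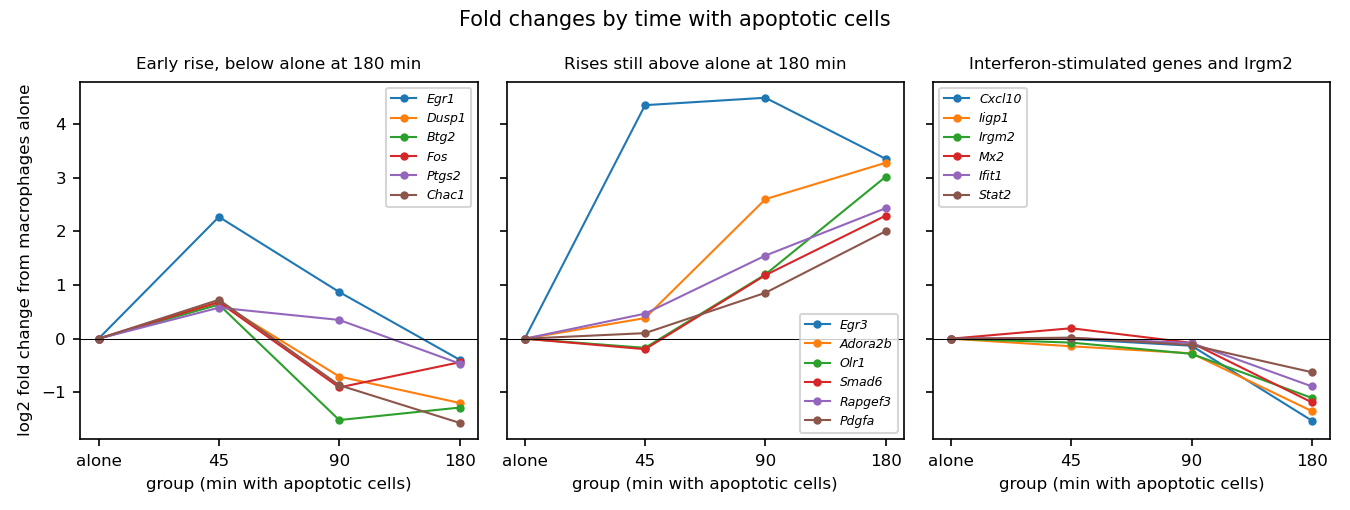
Log2 fold change from macrophages alone at 45, 90 and 180 min for 18 genes in 3 panels that share the vertical axis, and the group of macrophages alone at 0. The left panel holds genes that were higher at 45 min and lower at 180 min, the middle one genes that were higher at 180 min and the right one 5 interferon-stimulated genes of the list and Irgm2, whose largest step lies between 90 and 180 min.

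Inflammatory cytokines and chemokines did not move as 1 group against macrophages alone: 8 of 25 rose (32%) and 7 fell (28%), with a median of 0.06. Directly against 90 min, 11 of the 25 were lower at 180 min (44%, against 6.97% of all genes). Another 3 were higher (12%, against 4.45%), and the median was -0.24. Tnf was at 129, 107, 124 and 123 CPM in macrophages alone and at 251, 236, 237 and 232 CPM at 180 min, a rise of 0.98 (SE 0.051, adjusted p = 4.81e-24) without overlap. Ccl7, a chemokine for monocytes, rose by 0.48 and Ccl5, a chemokine that interferon induces, fell by 0.61. Il1b was at 13.6, 12.9, 13.97 and 10.6 CPM and 20.7, 13.97, 12.4 and 10.4 CPM, with library 1 of 180 min above all others. It was not called (0.14, adjusted p = 0.454), and without that library its change was -0.08, again not called (adjusted p = 0.697, with a range of 0.101 to 0.757 over all alternatives). Ptgs2, the inducible cyclooxygenase, was at 26.2, 21.2, 25.7 and 27.6 CPM and 22.01, 16.7, 17.04 and 17.3 CPM. It fell by 0.46 (SE 0.094), with overlap through library 1 of 180 min, after having been 0.58 higher at 45 min. Among 21 genes of prostaglandins and leukotrienes 6 rose and 4 fell, the last being Ptgs2, the leukotriene receptor gene Cysltr1 (-0.56) and the phospholipase genes Pla2g4a (-0.21) and Pla2g7 (-0.17). Pla2g4a was not called without library 3 of 180 min (-0.17) or library 4 of macrophages alone (-0.15). Hpgds, the synthase of prostaglandin D2, rose by 0.27.

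Of 27 NF-kB subunits and feedback genes 13 rose (48.1%) and 3, Nfkbiz, Rel (-0.19) and Irak3 (-0.36), fell (11.1%). The median was 0.22 (5 fell after the length and GC correction). Rel was not called without library 1 of 180 min (-0.14) or library 3 of macrophages alone (-0.16). Nfkbid, a nuclear inhibitor of NF-kB, rose by 1.43 (SE 0.096), from 16.6, 12.02, 14.9 and 17.1 CPM to 37.8, 45.8, 41.3 and 38.9 CPM. Tnfaip3, which encodes the ubiquitin-editing brake A20, rose by 0.66, and Nfkbia, which encodes the inhibitor IkBa, by 0.50. Nfkbiz, a nuclear coactivator of the same family as Nfkbid, fell by 0.93 (SE 0.056), from 143, 122, 134 and 128 CPM to 71.2, 74.6, 64.4 and 67.8 CPM, and had been 0.29 higher at 45 min. Receptors split as well, with 20 of 50 Toll-like and cytokine receptor genes higher (40%) and 16 lower (32%). Tlr2, the receptor for bacterial lipoproteins, was at 39.5, 44.6, 45.05 and 41.1 CPM and then at 88.5, 77.5, 80.3 and 86.4 CPM, a rise of 0.97 (SE 0.07). Clec4e, a lectin that senses a protein of dead cells and mycobacterial lipid, rose by 0.88 (SE 0.05). Tlr3, the endosomal receptor for double-stranded RNA, fell by 0.71 (SE 0.056), from 126, 132, 139 and 142 CPM to 82.3, 70.4, 84.9 and 89.99 CPM.

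Genes for engulfment receptors and bridging molecules rose in 12 of 43 cases (27.9%) and fell in 9 (20.9%). The median was -0.01 (14 fell after the length and GC correction). Olr1, a scavenger receptor for oxidised lipoprotein and phosphatidylserine, was at 3.61, 3.53, 3.59 and 3.76 CPM in macrophages alone and at 34.2, 33.5, 22.7 and 27.6 CPM at 180 min. The libraries of macrophages alone lay close together and far below those of 180 min, and Olr1 rose by 3.02 (SE 0.15, adjusted p = 3.03e-25). Of this rise 1.82 (SE 0.14) came between 90 and 180 min. Stab1, which encodes the phosphatidylserine receptor stabilin-1, rose by 1.07 (SE 0.052), from 315, 302, 276 and 287 CPM to 603, 673, 660.4 and 551 CPM. Cd300lf, a lipid-binding receptor of the CD300 family, rose by 0.76 and P2ry6, which senses uridine diphosphate from dying cells, by 0.47. The TAM receptors, tyrosine kinases that bind phosphatidylserine through Gas6 and protein S, differed from each other. Mertk was at 89.6, 86.9, 88.9 and 85.7 CPM and then at 73.4, 75.2, 74.3 and 72.7 CPM and fell by 0.25 (SE 0.053, adjusted p = 0.000147). Axl fell by 0.62 (SE 0.088) and the bridging protein gene Gas6 by 0.43 (SE 0.09). Tyro3 was at 0, 0, 0.0378 and 0.107 CPM in macrophages alone and at 0.750, 0.643, 0.850 and 0.716 CPM at 180 min and was called higher (adjusted p = 0.000259), but it had 0 counts in 2 of the libraries of macrophages alone and few in the others. Axl, Gas6 and Tyro3 were named after their values were seen. The scavenger receptor gene Cd36 was at 1981, 2182, 2152 and 2292 CPM and 2225, 2158, 2108 and 2280.1 CPM and was not called (0.03, adjusted p = 0.642).

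Promoters of rising genes are shown for 2 members, Olr1 with an AP-1 site and Maff with a full cyclic AMP response element, in the window described above and with the matches in capitals:
Olr1 (chr6:129507116-129507415, minus strand): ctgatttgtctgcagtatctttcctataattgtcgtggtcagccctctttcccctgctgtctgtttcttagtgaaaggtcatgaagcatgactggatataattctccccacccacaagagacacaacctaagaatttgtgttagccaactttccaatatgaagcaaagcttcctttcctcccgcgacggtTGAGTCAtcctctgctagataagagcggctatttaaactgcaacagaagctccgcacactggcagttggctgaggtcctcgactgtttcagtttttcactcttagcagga
Maff (chr15:79347270-79347569, plus strand): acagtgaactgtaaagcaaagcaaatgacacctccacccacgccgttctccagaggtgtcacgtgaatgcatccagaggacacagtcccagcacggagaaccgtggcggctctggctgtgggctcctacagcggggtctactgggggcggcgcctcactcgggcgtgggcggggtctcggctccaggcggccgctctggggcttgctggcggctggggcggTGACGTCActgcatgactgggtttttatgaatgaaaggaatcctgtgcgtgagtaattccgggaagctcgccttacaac
The AP-1 letters TGACTCA, on both strands, were in 6.20% of the promoters of genes that rose, 8.57% of those of genes that rose at least 1.5-fold, 4.47% of those of genes that fell and 4.80% of all. The full cyclic AMP response element, TGACGTCA, was in 3.33% of promoters of genes that rose, 3.25% of those that fell and 3.58% of all. The shorter letters TGACG, which lie within the full element, were in 36.6%, 34.1% and 35.6%. The EGR core GCGGGGGCG was in 7.70%, 7.20% and 6.20% and the E-box CACGTG in 14.4%, 10.98% and 11.9%. The TATA letters TATAAA were in 9.14%, 10.3% and 8.74%. A serum response element was in 3 promoters of all and TGATGCAAT, the composite site of ATF4, in 9.

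Engulfment genes were called about as often as abundant coding genes in general. Of 58 engulfment and actin genes 9 rose (15.5%) and 18 fell (31.03%), where abundant coding genes gave 16.2% and 33.7%, with a median of -0.08 (30 fell after the length and GC correction). Dock8, an exchange factor for Cdc42, was at 595, 585, 566 and 569 CPM in macrophages alone and at 371, 388, 402 and 407 CPM at 180 min and fell by 0.56 (SE 0.044, adjusted p = 2.63e-16). Tln1, which encodes talin, the link from integrins to actin, fell by 0.41. Rhob, an endosomal GTPase, rose by 0.94 (SE 0.056), from 61.9, 56.3, 61.4 and 62.6 CPM to 116, 122, 117 and 109.8 CPM, and Itpkb, an inositol phosphate kinase, by 0.42. Cdc42ep2, an effector of Cdc42 that is not on the list, rose by 1.83 (SE 0.16), from 3.46, 3.13, 3.59 and 5.36 CPM to 13.8, 14.2, 14.997 and 11.5 CPM. Of 60 lysosome and phagosome genes 27 fell (45.0%) and 10 rose (16.7%), with a median of -0.10. Rubcn, a regulator of autophagy and of LC3-associated phagocytosis, fell by 0.57 (SE 0.065), from 69.9, 64.5, 66.3 and 65.7 CPM to 45.2, 49.2, 45.9 and 40.2 CPM. Mitf, a transcription factor of lysosomal genes, fell by 0.41, and Psap, the precursor of the saposins that help degrade sphingolipids, by 0.26. Sqstm1, the autophagy receptor p62, rose by 0.32. Itga4, an integrin chain outside both lists, fell by 1.37 (SE 0.079, adjusted p = 3.77e-22), from 67.7, 65.3, 62.5 and 72.9 CPM to 23.8, 23.9, 29.7 and 25.7 CPM.

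In lipid handling, 8 of 27 genes of cholesterol efflux and storage rose (29.6%) and 5 fell (18.5%), with a median of -0.04. Ppard, a nuclear receptor for fatty acids, was at 19.1, 13.7, 16.9 and 17.6 CPM and then at 43.8, 40.3, 41.5 and 38.002 CPM, a rise of 1.28 (SE 0.092, adjusted p = 4.28e-18). The lipid carrier gene Fabp4 rose by 0.84 and Hilpda, a protein of lipid droplets that inhibits lipolysis, by 0.63. The cholesterol pump gene Abca1 was at 855, 846, 839 and 844 CPM and 694, 735, 754 and 725 CPM and fell by 0.22 (SE 0.039). The other members that fell were Pparg (-0.38), Apoe (-0.30), Lpl (-0.15) and Soat1 (-0.15). Lipg, which encodes endothelial lipase, had the largest fall of the genes taken by the naming rule. It fell by 1.67 (SE 0.28, adjusted p = 1.52e-06), from 4.08, 4.78, 4.15 and 5.26 CPM to 0.954, 0.919, 2.17 and 1.39 CPM. Of 33 synthesis genes 4 rose (12.1%), among them Sqle (0.52), Insig1 (0.33) and Fasn (0.43). Another 6 fell (18.2%), among them the desaturase gene Scd2 (-0.68) and the citrate lyase gene Acly (-0.31).

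Genes of glycolysis and its control fell more often than they rose. Of 39 genes 17 fell (43.6%) and 5 rose (12.8%), beside 33.7% and 16.2% of abundant coding genes, with a median of -0.09. Txnip, which blocks glucose uptake and binds thioredoxin, was at 271, 260.2, 287 and 288 CPM in macrophages alone and at 119, 97.4, 117 and 105.1 CPM at 180 min. It fell by 1.33 (SE 0.054, adjusted p = 4.24e-29), with most of the fall present at 90 min (-1.16). Sgk1, a kinase that acts on ion channels and transporters, was at 107, 129.5, 122 and 125 CPM and then at 341, 339, 318 and 328 CPM, a rise of 1.46 (SE 0.049), of which 1.04 came after 90 min. Pfkfb3, an enzyme whose product activates phosphofructokinase, rose by 0.48, Hif1a, the factor stabilised by low oxygen, by 0.48 and the glucose transporter gene Slc2a1 by 0.41. The lactate transporter gene Slc16a1 was 0.26 higher (adjusted p = 0.0331), a call lost under 8 of 15 alternatives (adjusted p from 0.00997 to 0.115), in which its change was 0.21 to 0.27. These were the removal of the filter on low counts, thinning, the length and GC trend, and leaving out library 1, 2 or 4 of 180 min or 1 or 2 of macrophages alone.

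Among 27 carriers of amino acids and other solutes 5 rose (18.5%) and 6 fell (22.2%), or 10 after the length and GC correction. The arginine carrier gene Slc7a2 rose by 1.49 (SE 0.13), from 8.15, 6.15, 9.48 and 6.92 CPM to 20.9, 20.03, 22.6 and 23.05 CPM. Slc7a11, which brings in cystine for glutathione, rose by 1.34 (SE 0.067), from 49.4, 41.1, 52.7 and 47.7 CPM to 111, 131, 123 and 119 CPM, and the phosphate carrier gene Slc20a1 by 0.52. Slc43a2 (0.31) and Slc39a8 (0.38) were the others that rose, the latter not called without library 2 or 4 of 180 min (0.27 and 0.32) or library 2 of macrophages alone (0.29). The glutamine carrier gene Slc38a2 fell by 0.70. Polyamine genes rose in 8 of 18 cases (44.4%) and fell in 2 (11.1%), Amd1 (-0.37) and Slc3a2 (-0.25). Odc1, which limits the rate of polyamine synthesis, was at 76.2, 76.96, 84.99 and 76.9 CPM and then at 164, 150.3, 129.7 and 149 CPM, a rise of 0.91 (SE 0.056). Azin1, which protects that enzyme, rose by 0.44 and Sat1, which acetylates polyamines for export, by 0.39.

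The integrated stress response, which limits protein synthesis when amino acids or folding capacity run short, had the second lowest median of any list (-0.26). Of its 27 genes 15 fell (55.6%) and 1, Cebpb, rose (3.7%). Chac1, an enzyme that degrades glutathione, was at 6.24, 5.29, 4.91 and 4.29 CPM in macrophages alone and at 1.499, 1.38, 2.12 and 1.81 CPM at 180 min. It fell by 1.57 (SE 0.21, adjusted p = 1.19e-08), after having been 0.73 higher at 45 min. Sesn2, an inhibitor of growth signalling through mTORC1, fell by 1.11 (SE 0.08), from 68.2, 59.4, 59.997 and 58.4 CPM to 27.1, 26.5, 30.3 and 29.9 CPM. Trib3, a pseudokinase that ATF4 induces, fell by 0.69, and Eif2ak2, the RNA-dependent kinase of this pathway that interferon also induces, by 0.60. Cebpb, a transcription factor of myeloid cells, rose by 0.96 (SE 0.049), from 270.0, 241, 248 and 234 CPM to 509, 487, 461 and 474 CPM. Among 26 chaperones none rose and 5 fell (19.2%), Hspa4l (-0.25), Hspa5 (-0.32), Hsp90aa1 (-0.19), Hsp90ab1 (-0.28) and Hsp90b1 (-0.19). The median was -0.03 (1 rose in 3 alternatives). NRF2 targets and antioxidant enzymes split, with 8 of 25 higher (32%) and 7 lower (28%). Hmox1, which degrades haem, was at 770.3, 732, 757 and 772 CPM and then at 1229, 1126, 1072 and 1129.9 CPM, a rise of 0.59 (SE 0.042) that was absent at 90 min (-0.06, not called). Gclm, a subunit of the first enzyme of glutathione synthesis, rose by 0.39 and G6pdx, which makes NADPH, fell by 0.36.

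Splicing regulators rose in 25 of 37 cases (67.6%) and fell in 3 (8.11%), Srpk2 (-0.20), Ptbp1 (-0.23) and Srrm2 (-0.20), with a median of 0.29. Srpk2 was not called without library 1 of 180 min (-0.16) or of macrophages alone (-0.17), or after the length and GC correction (-0.16). Srsf2, a serine and arginine rich splicing factor, was at 74.04, 82.2, 67.5 and 72.6 CPM in macrophages alone and at 155, 159, 176 and 155 CPM at 180 min, a rise of 1.12 (SE 0.055, adjusted p = 3.97e-25). Hnrnpdl rose by 0.85, Srsf3 by 0.70 and Srsf5 by 0.61. At 180 min 4 of the 37 were higher than at 90 min (10.8%, against 4.45% of all genes) and 2 lower (5.41%, against 6.97%). Of 22 nuclear long noncoding RNAs and snoRNA hosts 13 rose (59.1%) and 1, Zfas1 (-0.60), fell (4.55%), with a median of 0.59. Of all noncoding genes 12.6% rose and 3.66% fell. Mir17hg, the host of the miR-17-92 cluster, was at 2.27, 3.56, 2.68 and 3.06 CPM and then at 10.5, 15.3, 10.1 and 10.2 CPM, with library 2 the highest, and rose by 1.98 (SE 0.19). Neat1, the scaffold of paraspeckles, rose by 1.32 (SE 0.073), from 384, 454, 346 and 388 CPM to 805, 995, 1195 and 927 CPM. Malat1, a nuclear RNA found near splicing factors, rose by 0.67, and Mir22hg by 1.29. These RNAs stay in the nucleus or hold introns with small RNAs. The share of all counts in noncoding genes rose from 2.25 ± 0.132% (SD, n = 4) to 3.04 ± 0.306% (exact two-sided permutation test, p = 0.0286, the smallest that 4 against 4 libraries can give, and 0.0667 adjusted over 7 gene classes). That in noncoding genes within introns was 0.197 ± 0.0163% and 0.226 ± 0.0266% (exact p = 0.114), with overlap between the groups. Malat1 by itself had a mean of 10793 CPM in macrophages alone and 17145 CPM at 180 min. Its rise was most of that in the share of all noncoding genes.

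The series title links efferocytosis to RNA polymerase II leaving its paused state. Of 46 genes of pausing and elongation 11 rose (23.9%) and 12 fell (26.1%), beside 16.2% and 33.7% of abundant coding genes, with a median of -0.09. Polr2a, the largest subunit of the polymerase, was at 457, 419, 464 and 441 CPM in macrophages alone and at 271, 261, 295 and 292 CPM at 180 min. It fell by 0.67 (SE 0.049, adjusted p = 7.54e-18), without overlap. Cdk9, the kinase of pause release, rose by 0.18. The call of Cdk9 was lost after the length and GC correction (0.13) and without library 4 of macrophages alone (0.15). Eaf1, a partner of the elongation factor ELL, rose by 0.51 and the cyclin gene Ccnl1 by 0.51. Ribosome biogenesis genes rose in 13 of 51 cases (25.5%) and fell in 1 (1.96%), Polr1a (-0.35). The median was 0.12 (4 fell after the length and GC correction). Gnl3, a nucleolar GTPase, rose by 0.67, Rrp1b by 0.55 and Ppan by 0.52. Against 90 min 8 of the 51 genes were higher (15.7%, against 4.45% of all genes) and none lower. The 71 ribosomal protein genes, many with near-identical pseudogenes, had 6 higher (8.45%) and 12 lower (16.9%). The latter was near the 15.99% of all genes and below the 33.7% of abundant coding genes, of which 16.2% were higher. The number lower was 6 without library 4 of 180 min and 20 without library 1 of 180 min. After the length and GC correction 32 were lower and 3 higher.

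All 9 mitochondrially encoded genes tested were higher, with a median of 0.91. They encode subunits of the respiratory chain and the 2 ribosomal RNAs of the organelle. mt-Cytb, of complex III, was at 124, 102, 92.6 and 114 CPM in macrophages alone and at 193, 283, 237 and 239.6 CPM at 180 min, a rise of 1.14 (SE 0.071, adjusted p = 1.24e-20) without overlap. mt-Nd1, of complex I, rose by 1.02, mt-Co1, of complex IV, by 0.90 and the large ribosomal RNA mt-Rnr2 by 0.60. At 45 min these 4 had been lower than in macrophages alone, at -0.24, -0.21, -0.31 and -0.34. The share of counts in mitochondrial genes was 4.33%, 4.71%, 4.21% and 4.55% in macrophages alone and 6.44%, 7.75%, 7.24% and 6.58% at 180 min (exact two-sided permutation test, p = 0.0286, adjusted 0.0667). Most of this share and of its rise was mt-Rnr2, with means of 34019.5 CPM in macrophages alone and 51513.1 CPM at 180 min. Ribosomal RNA was depleted before sequencing, and the part of that step was not tested. Nuclear genes of the respiratory chain did not rise with the mitochondrially encoded ones: 13 of 50 fell (26%) and none rose. Among abundant coding genes 33.7% fell and 16.2% rose. The median of the 50 was -0.09 (25 fell after the length and GC correction). Cox6a1 fell by 0.34, Cox8a by 0.27 and Sdha by 0.18. Summed T cell or Jurkat markers, given above, were 16.02 to 21.1 CPM and 18.2 to 24.1 CPM in the same libraries, and the part of reads from human mitochondria was not tested.

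**Figure D5:**
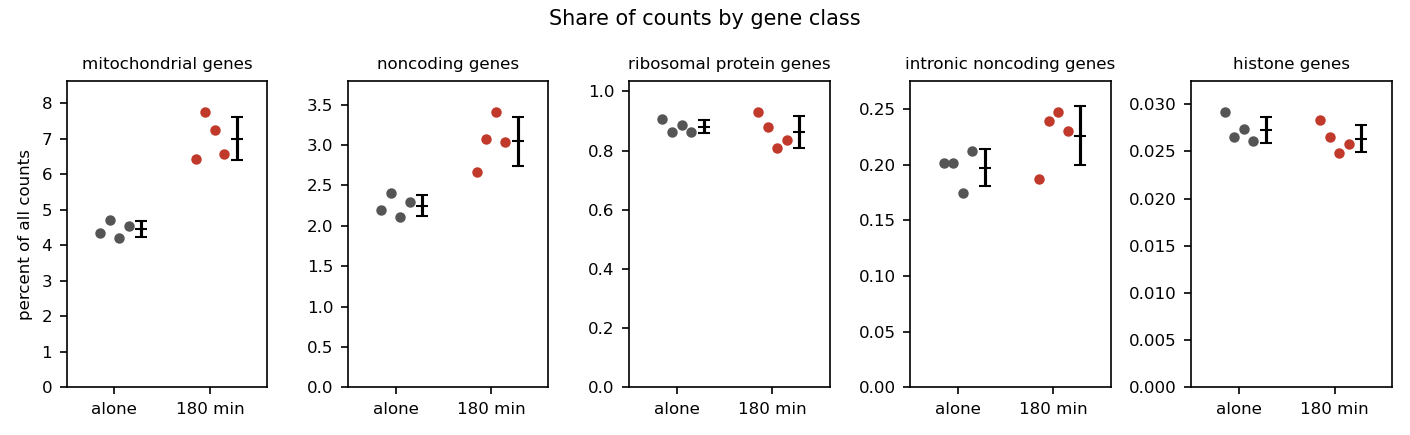
Percent of all counts of a library that fell in 5 classes of genes, with 1 point for each of the 4 libraries of macrophages alone (grey) and of 180 min (red), and the mean ± SD beside them. Each panel has its own axis from 0. Mitochondrial and noncoding genes take a larger share in every library of 180 min, while the other 3 classes overlap. Most of the rise lay in mt-Rnr2 for mitochondrial genes and in Malat1 for noncoding genes.

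Proliferation genes gave 9 rises (18.4%) and 6 falls (12.2%) among 49, near the 15.1% and 15.99% of all genes, with a median of 0.10. Cables1, an adaptor of cyclin-dependent kinases, was at 1.05, 1.37, 1.02 and 0.805 CPM in macrophages alone and at 4.70, 6.98, 7.05 and 7.33 CPM at 180 min, library 1 being the lowest of the latter. It rose by 2.61 (SE 0.31, adjusted p = 2.54e-10). Plk3, a stress-responsive kinase, rose by 1.44 (SE 0.098) and the replication licensing factor gene Cdt1 by 0.67, while the cyclin gene Ccnd2 fell by 0.58. Among 29 BCL2 family and death genes 6 rose (20.7%) and 10 fell (34.5%). Bcl2a1d, an inhibitor of apoptosis with near-identical copies, rose by 0.97, and the death-promoting members Pmaip1 (-0.70) and Bcl2l11 (-0.40) fell. Clock genes gave 6 rises (33.3%) and 4 falls (22.2%) among 18 (2 fell without library 2, 3 or 4 of macrophages alone). The repressors Bhlhe40, Bhlhe41 and Cry1 rose by 1.15, 0.89 and 0.63. Histone genes of the replication clusters, most of them near-identical, fell in 6 of 33 cases (18.2%, near the 15.99% of all genes) and rose in 1, Hist1h1c (0.25). Hist2h3b, which is not on that list, fell by 1.24 (SE 0.24), from 6.17, 3.60, 4.72 and 4.94 CPM to 2.59, 1.56, 2.29 and 1.73 CPM.

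The remaining genes among the 15 largest rises and falls have no place in a list. Mybpc3, known as a sarcomere protein of heart muscle, was at 0.866, 1.80, 1.13 and 0.483 CPM and then at 3.75, 4.32, 3.02 and 3.71 CPM, a rise of 1.74 (SE 0.28, adjusted p = 8.88e-07). Ppm1k, a mitochondrial phosphatase of branched-chain amino acid breakdown, fell by 1.35 (SE 0.091), from 31.6, 34.9, 32.1 and 29.7 CPM to 11.5, 12.7, 12.7 and 13.4 CPM. From 90 to 180 min it fell by 0.97. Zfp467, a zinc-finger factor, fell by 1.31 (SE 0.32) and Sdk2, a cell adhesion protein, by 1.28 (SE 0.29). Both were at low levels, Zfp467 at 2.27, 2.35, 3.89 and 2.57 CPM and then 1.29, 1.38, 1.40 and 0.506 CPM and Sdk2 at 4.98, 3.60, 4.04 and 2.68 CPM and then 2.04, 2.30, 0.765 and 1.52 CPM.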

How the data were processed

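Total RNA depleted of ribosomal RNA was sequenced with a strand-marking kit, per the labels' protocols. The authors deposited raw read counts by gene in 1 table, for 16 libraries, 4 a group. STAR 2.7.9a, SAMtools and HTSeq and the build mm39 are named in the submitters' processing notes; the strand setting of the counting is not given in the sources used here, so overlapping and antisense genes are uncertain. Column headings give groups but no replicate numbers, and library numbers are names in file order. Libraries of a group differed by more than sampling noise (chi-square per degree of freedom 3.98 to 10.2). Each was counted as 1 replicate, although this spread does not show that they came from separate cultures.

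Of 55416 genes, 14168 passed edgeR's expression filter (minimum count 10, minimum total 15). edgeR 4.0.16 (TMM scaling, quasi-likelihood F test, 16 libraries sharing 1 spread, Benjamini-Hochberg) gave calls at an adjusted p under 0.05; the method was tested on simulated data. CPM are counts over TMM-scaled library size, those of marker lists over plain totals. Symbols and gene classes (52083 genes) came from GENCODE M21, of an older build, so coordinates are printed only for promoters, in the RefSeq build GRCm38.p6. Shares of counts were compared by exact permutation.

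Members, the 43 gene lists and the naming rule were chosen with earlier results of these data known. The rule takes the 15 largest rises and falls among called genes with average log2 CPM of at least 1 and no overlap between groups, up to 4 members per list by p, and 20 preset genes. Another 46 genes were named after their values were seen, most of them to complete a count of 5 or fewer. A few results are not reported here.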

Additional observations from a re-analysis of the deposited data

Results flagged for a closer look

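In 418 groups of 4 libraries, the genes named in the text and the shares of counts were checked for a library that stood far from the other three, and 26 such libraries were found. Chance alone gives about 1 in 20 groups. These are values, and their causes were not tested. Library 1 of 180 min stood apart for Cables1 at 4.70 CPM (the others 6.98 to 7.33), G6pdx at 268 CPM (the others 251 to 254), Irf8 at 173 CPM (the others 157 to 159), Isg15 at 306 CPM (the others 284 to 288), Jun at 199 CPM (the others 179.7 to 183), Ptgs2 at 22.01 CPM (the others 16.7 to 17.3) and Tgfbi at 588 CPM (the others 523 to 534). Library 2 of 180 min stood apart for Il10 at 2.48 CPM (the others 0.680 to 0.843), Mir17hg at 15.3 CPM (the others 10.1 to 10.5), Tap2 at 155 CPM (the others 174 to 177) and Tapbp at 647 CPM (the others 717 to 725). Library 3 of 180 min stood apart for Hsp90aa1 at 238 CPM (the others 251 to 253). Library 4 of 180 min stood apart for Maff at 11.3 CPM (the others 8.71 to 9.13), Ppan at 19.1 CPM (the others 22.6 to 23.1) and Zfp467 at 0.506 CPM (the others 1.29 to 1.40). Library 1 of macrophages alone stood apart for Amd1 at 40.97 CPM (the others 46.3 to 46.99), Fpr2 at 80.2 CPM (the others 90.7 to 91.5) and Sesn2 at 68.2 CPM (the others 58.4 to 59.997). Library 2 of macrophages alone stood apart for Clec4e at 86.01 CPM (the others 91.6 to 92.6) and Zfas1 at 41.8 CPM (the others 34.02 to 34.8). Library 3 of macrophages alone stood apart for Bcl2a1d at 8.23 CPM (the others 10.9 to 11.1), Gnl3 at 36.2 CPM (the others 41.9 to 42.7), Mir22hg at 21.4 CPM (the others 25.6 to 26.1), Odc1 at 84.99 CPM (the others 76.2 to 76.96) and Smad6 at 2.79 CPM (the others 1.51 to 1.66). Library 4 of macrophages alone stood apart for Pla2g4a at 67.3 CPM (the others 57.03 to 58.6).

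Some named genes were called in 1 direction at an earlier time and in the other at 180 min, and the direct comparison of the times was called as well, 25 comparisons in all. Both earlier and later values are against the same macrophages alone. Log2 fold changes that went from higher to lower were those of Bst2 (0.21 at 45 min, -0.19 at 180 min, difference -0.40), Btg2 (0.64 at 45 min, -1.28 at 180 min, difference -1.92), Chac1 (0.73 at 45 min, -1.57 at 180 min, difference -2.29), Cmpk2 (0.17 at 45 min, -1.004 at 180 min, difference -1.18) and Dusp1 (0.68 at 45 min, -1.20 at 180 min, difference -1.88). The same turn was seen for Egr1 (2.27 at 45 min, -0.39 at 180 min, difference -2.66), Egr1 (0.87 at 90 min, -0.39 at 180 min, difference -1.26), Fcgr1 (0.16 at 45 min, -0.27 at 180 min, difference -0.43), Fos (0.68 at 45 min, -0.44 at 180 min, difference -1.12) and Ifit3b (0.12 at 45 min, -0.99 at 180 min, difference -1.11). It was also seen for Irf7 (0.15 at 45 min, -0.32 at 180 min, difference -0.47), Isg15 (0.19 at 45 min, -0.56 at 180 min, difference -0.75), Mx2 (0.19 at 45 min, -1.19 at 180 min, difference -1.38), Nfkbiz (0.29 at 45 min, -0.93 at 180 min, difference -1.22) and Ptgs2 (0.58 at 45 min, -0.46 at 180 min, difference -1.04). Further such genes were Ptgs2 (0.35 at 90 min, -0.46 at 180 min, difference -0.81), Rgs1 (0.27 at 45 min, -0.16 at 180 min, difference -0.43), Rgs1 (0.16 at 90 min, -0.16 at 180 min, difference -0.32), Spry2 (0.25 at 45 min, -0.79 at 180 min, difference -1.04) and Trib3 (0.27 at 45 min, -0.69 at 180 min, difference -0.96). From lower to higher went Slc43a2 (-0.13 at 45 min, 0.31 at 180 min, difference 0.44), mt-Co1 (-0.31 at 45 min, 0.90 at 180 min, difference 1.21), mt-Cytb (-0.24 at 45 min, 1.14 at 180 min, difference 1.37), mt-Nd1 (-0.21 at 45 min, 1.02 at 180 min, difference 1.23) and mt-Rnr2 (-0.34 at 45 min, 0.60 at 180 min, difference 0.94). Adjusted p-values of the differences, by edgeR, ran from 8.36e-40 to 4.1e-09.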

How the results depend on the processing

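Alternatives were DESeq2 1.42.0, RLE scaling, no filter on low counts, only the 8 libraries compared, thinning to 10690809 counts, protein-coding genes only, a length and GC trend removed, and leaving out each library. No paired analysis was possible because the columns of the table carry no replicate numbers. Counts of called genes over the whole table stayed within 1.5 times the value given under these alternatives, except that with protein-coding genes only 250 genes rose and 56 fell at least 2-fold. Without single libraries 1770 to 2109 genes rose and 1899 to 2155 fell against macrophages alone. Of 202 genes named, 199 were called, 189 of them under every alternative that gave a value. The 10 others are given with the settings that ended their calls where they are named, and the causes were not tested. Il10, Il1b and Cd36 were not called. The sign turned for Il1b without library 1 of 180 min (-0.078, and up to 0.29 without other libraries) and for Cd36 with the length and GC trend removed (-0.049) or without library 1 of macrophages alone (-0.014, and up to 0.064 without other libraries), and Il10 was called lower without library 2 of 180 min (-1.04). The share of counts in ribosomal protein genes was -0.0171 percentage points from that of macrophages alone and ran from -0.0394 without library 1 of 180 min to 0.00149 without library 3. With calls limited to at least 1.5-fold, promoters of genes that rose held the AP-1 letters in 8.57% and the letters TGACG in 33.9%, and those of genes that fell held them in 6.32% and 25.8%, the ATF4 composite in 0.526% and the interferon element in 17.4%. Of 1250 counts over lists, 40 moved by over 1.5 times. Depth limits the 180 min group most in library 2, whose total of 10690809 counts was the smallest of the 8 compared.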
